A study of Mus musculus with 9 samples.

Results

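The late neutrophil granule and calprotectin genes are a set of 10 genes expressed in maturing neutrophils: S100a8, S100a9, Camp, Ngp, Ltf, Lcn2, Mmp8, Mmp9, Lyz2 and Cybb. The name of the set does not mean that each gene is limited to neutrophils or to late stages. They were chosen by symbol, and all 10 were found among the 23285 genes of the authors' deposited table. RNA was sequenced from immature erythroid cells sorted from mouse bone marrow, in 9 libraries that form 3 groups of 3. FFa, the control, is TRIM28(flox/flox) without Cre, sorted as CD71(hi)TER119+. KOa is TRIM28(flox/flox):Mx1Cre, modestly deleted and sorted through the same gate, with 5 to 8% of the gene undeleted and 26% of its mRNA left, as the submitters state. KOb is TRIM28(flox/flox):Mx1Cre, severely deleted and sorted as CD71(hi)TER119-, with 1 to 4% undeleted and 18% of mRNA left. All groups are on the C57BL/6 background and carry the floxed alleles. Mx1Cre is driven by an interferon-inducible promoter that is active in many blood lineages, so the deletion is not limited to erythroid cells. It was induced with 5 poly(I:C) injections, and mice were analysed 2 weeks later. Whether the control mice were injected, and the age and sex of the mice, are not stated in the labels. Cre and deletion differ together between FFa and both mutant groups, and the TER119 gate differs as well for KOb, so their parts cannot be told apart.

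Neutrophils fill their granules in waves as they mature. Azurophil granules with myeloperoxidase and serine proteases come first, at the promyelocyte stage, then specific granules with lactoferrin, lipocalin and cathelicidin, and then gelatinase granules, while calprotectin, the calcium- and zinc-binding heterodimer of S100A8 and S100A9, fills the cytosol. The C/EBP and PU.1 transcription factors are known to drive this programme. Neutrophils and their precursors are the most abundant nucleated cells of mouse bone marrow, and none of these products is a classical red cell gene.

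The sorted cells carried strong erythroid signals in every group. Alas2, the erythroid enzyme that starts heme synthesis, was at 2082 FPKM in FFa, 1167 in KOa and 861 in KOb. The transferrin receptor gene Tfrc, which encodes the CD71 used in the sort, was at 81.4, 62.5 and 61.8. FPKM are fragment counts divided by the length of the transcript and by sequencing depth. Trim28 itself stood at 26.0 FPKM in FFa, 6.64 in KOa and 4.76 in KOb. The authors pooled the 3 libraries of a group into 1 FPKM per gene, so no value per library, no spread between libraries and no depth can be given. After a log2 ratio, ± gives a standard error worked out from the deposited statistic. A gene is called changed where its deposited q is below 0.05, and the smallest q the table can give is 0.000619. Separate mice are not named for the libraries, so the tests may measure technical spread. In bulk RNA, fewer neutrophil-lineage cells in a sort and less RNA per cell cannot be told apart.

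The sequences just before 5 of the genes are shown because those genes fell most or, for S100a8 and S100a9, lie side by side and differed in size of change. Each is the 250 bases before the gene's start in RefSeq GRCm38.p6 (mm10), read 5′ to 3′ on the gene's own strand. Capitals mark matches on either strand to TTNNGNAA, the core of C/EBP sites, and to GAGGAA, the core of PU.1 sites. S100a8 lies on the plus strand, and its window is chr3:90668821-90669070. S100a9 lies on the minus strand, with the window chr3:90695722-90695971. The windows of Camp (minus), Ngp (plus) and Lyz2 (minus) are chr9:109849457-109849706, chr9:110419558-110419807 and chr10:117282273-117282522.
S100a8: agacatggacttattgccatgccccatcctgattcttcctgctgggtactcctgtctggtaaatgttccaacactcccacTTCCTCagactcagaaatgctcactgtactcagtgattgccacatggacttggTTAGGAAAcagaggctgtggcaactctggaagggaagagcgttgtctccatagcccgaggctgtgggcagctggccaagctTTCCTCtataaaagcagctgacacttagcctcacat
S100a9: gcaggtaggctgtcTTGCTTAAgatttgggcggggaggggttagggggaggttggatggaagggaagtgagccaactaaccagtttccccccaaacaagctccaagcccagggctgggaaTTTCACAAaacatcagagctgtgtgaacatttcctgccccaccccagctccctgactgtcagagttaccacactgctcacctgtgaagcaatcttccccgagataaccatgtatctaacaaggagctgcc
Camp: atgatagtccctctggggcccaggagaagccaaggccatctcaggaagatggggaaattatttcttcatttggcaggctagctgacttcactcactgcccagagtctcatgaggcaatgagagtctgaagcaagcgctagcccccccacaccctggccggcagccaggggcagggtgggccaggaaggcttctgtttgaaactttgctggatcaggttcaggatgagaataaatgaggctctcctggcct
Ngp: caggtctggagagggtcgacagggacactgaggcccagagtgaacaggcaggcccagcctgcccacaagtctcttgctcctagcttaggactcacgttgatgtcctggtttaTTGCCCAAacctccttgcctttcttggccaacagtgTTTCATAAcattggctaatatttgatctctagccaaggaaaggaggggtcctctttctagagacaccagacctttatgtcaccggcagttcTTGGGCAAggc
Lyz2: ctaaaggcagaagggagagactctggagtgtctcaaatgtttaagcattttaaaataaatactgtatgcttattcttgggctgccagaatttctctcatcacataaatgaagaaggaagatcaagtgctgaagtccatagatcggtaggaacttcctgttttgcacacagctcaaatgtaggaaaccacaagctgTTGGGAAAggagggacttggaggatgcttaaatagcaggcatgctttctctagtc
Of the 10 genes, 9 matched an entry in the promoter table, all but Mmp9. Among those 9, 7 windows (77.8%) held TTNNGNAA on either strand, against 36.8% of all 32851 promoters of the same length. GAGGAA was found in 4 of 9 (44.4%, against 23.3%), and TGANTCA, the AP-1 site, in 1 of 9, that of Cybb (11.1%, against 6.75%). No match overlapped a match to another motif. Ngp held 3 C/EBP matches, S100a9 held 2 and S100a8 held 1, while the Camp window held none of the 3 motifs. A match is a string of letters and not a measured binding site.

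Calprotectin made up most of the signal. S100a8 (chr3:90669071-90670034) was at 34935 FPKM in FFa, 14822 in KOa and 12078 in KOb. In FFa and KOa it ranked 4 among all genes, and in KOb it ranked 6. S100a9 (chr3:90692633-90695691) was at 10284 FPKM in FFa, 278 in KOa and 231 in KOb. The rank of S100a9 went from 9 to 167 and 189. S100a9 was thus high in the control and low in both mutant groups, whereas S100a8 was among the most abundant transcripts of all 3. By the authors' deposited table, S100a9 fell in both groups, with log2 ratios of -5.21 ± 0.21 in KOa and -5.48 ± 0.21 in KOb (q 0.000619 in each). These are levels 37.0-fold and 44.5-fold lower than in FFa. S100a8 had a log2 ratio of -1.24 ± 0.39 in KOa that did not pass (p 0.031, q 0.106), and it fell by 1.53 ± 0.38 on the log2 scale in KOb (q 0.0486), as the authors' deposited table gives them. The ratio of S100a8 to S100a9 FPKM went from 3.40 in FFa to 53.3 in KOa and 52.3 in KOb. The gap between their log2 ratios was 3.97 ± 0.44 in KOa and 3.94 ± 0.43 in KOb, a combined error that assumes independence and is not a deposited test. Neither transcript shared a 50-base stretch with another annotated gene.

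**Figure D1:**
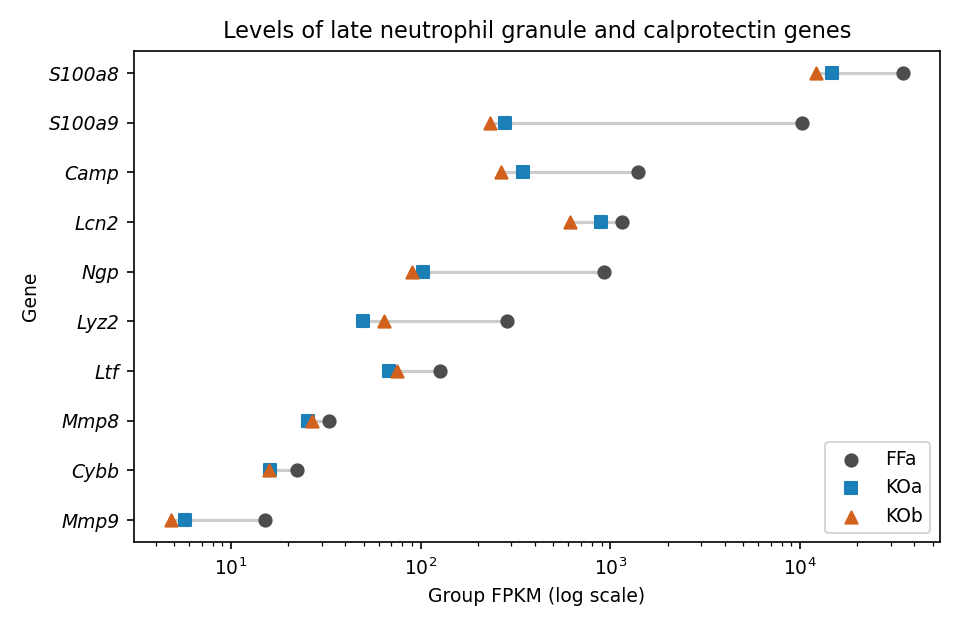
Group FPKM of the 10 genes on a log axis, with 1 point for each group (FFa, KOa, KOb), ordered by level in FFa. The FFa point lies to the right of both mutant points for every gene, and S100a9 has the widest gap, from 10284 FPKM to 278 and 231. Scaling to the sum of all FPKM puts KOb above FFa for 3 of the 10 genes, and scaling without globins puts KOa above FFa for 3 and KOb for 2.

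The cathelicidin genes also fell in both mutant groups. Camp (chr9:109847377-109849456), the precursor of the antimicrobial peptide CRAMP, was at 1395 FPKM in FFa, 347 in KOa and 264 in KOb. Ngp (chr9:110419808-110423012), neutrophilic granule protein, carries a related cathelin-like domain and was at 921, 103 and 89.5 FPKM. Both were high in FFa and several-fold lower in both mutants, with KOb slightly the lowest. The authors' deposited table gives Camp log2 ratios of -2.01 ± 0.21 and -2.40 ± 0.21 (q 0.000619 in each), 4.03- and 5.29-fold lower. For Ngp the authors' deposited table gives -3.16 ± 0.26 and -3.36 ± 0.26 (q 0.000619 in each), 8.96- and 10.3-fold lower. The fall of Ngp was larger than that of Camp by 1.15 ± 0.34 in KOa and 0.96 ± 0.33 in KOb, with errors combined as above. The genes lie 570.4 kb apart on chromosome 9, and the upstream windows printed above differ in that 3 C/EBP matches lie before Ngp and none before Camp. Mmp8, called in neither group, held 2 such matches, as did Ltf and S100a9. A link between matches and falls was not tested.

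The genes of the iron-scavenging proteins of specific granules had log2 ratios nearer to 0. Lactoferrin (Ltf, chr9:111019292-111042766), which binds iron, was at 127 FPKM in FFa, 67.9 in KOa and 75.0 in KOb. Lipocalin-2 (Lcn2, chr2:32384637-32387739), which binds bacterial siderophores, was at 1150.5, 895 and 609 FPKM. Ltf stood at 53.6% of its control level in KOa and 59.2% in KOb, and Lcn2 at 77.8% and 52.9%. In the authors' deposited table Ltf fell, with log2 ratios of -0.90 ± 0.28 in KOa and -0.76 ± 0.28 in KOb (q 0.000619 in each), though scaling to the sum of all FPKM turns the KOb ratio to 0.15. The authors' deposited table gives Lcn2 a log2 ratio of -0.36 ± 0.25 in KOa that did not pass (q 0.166) and of -0.92 ± 0.25 in KOb that did (q 0.000619). Scaling to the sum of all FPKM moves this KOb ratio to -0.01, and scaling without globins moves it to -0.41. The 2 genes' log2 ratios differed by 0.54 ± 0.38 in KOa and by -0.16 ± 0.37 in KOb, each under 2 combined errors.

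The matrix metalloproteinases of the granules parted. Mmp9 (gelatinase B, chr2:164948251-164955846), which marks gelatinase granules, was at 15.2 FPKM in FFa, 5.69 in KOa and 4.80 in KOb. Mmp8 (neutrophil collagenase, chr9:7558429-7568486), a specific granule enzyme, was at 32.8, 25.5 and 26.7 FPKM. The authors' deposited table has Mmp9 lower in both groups, with log2 ratios of -1.41 ± 0.31 and -1.66 ± 0.31 (q 0.000619 in each). Mmp8 passed in neither, with -0.36 ± 0.28 (q 0.121; 95% interval -0.90 to 0.18) and -0.30 ± 0.28 (q 0.223; -0.84 to 0.25), by the authors' deposited table and its implied errors. The log2 ratios of Mmp8 and Mmp9 differed by 1.05 ± 0.41 in KOa and 1.36 ± 0.41 in KOb.

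Lysozyme M (Lyz2, chr10:117277541-117282272), which cleaves bacterial cell walls, was at 284 FPKM in FFa, 49.7 in KOa and 63.9 in KOb. The lowest level was in KOa, as for Ltf and Mmp8. The authors' deposited table gives log2 ratios of -2.52 ± 0.25 and -2.15 ± 0.24 (q 0.000619 in each), 5.72- and 4.45-fold lower. Lyz2 has a near-identical neighbour, Lyz1, with 96.0% identity over 1262 aligned transcript bases, and 15.4% of the 50-base stretches of Lyz2 also occur in Lyz1. Lyz1 was assigned 0.449, 0.223 and 0.0224 FPKM. How reads of the shared stretches were split between both genes is uncertain. Cybb (chrX:9435252-9469324), the gp91phox subunit of the phagocyte NADPH oxidase, was at 22.3 FPKM in FFa, 16.1 in KOa and 15.8 in KOb. The authors' deposited table calls Cybb lower in both, with -0.48 ± 0.29 (q 0.0383) and -0.50 ± 0.29 (q 0.022), but scaling to FPKM without globins turns these ratios to 0.06 and 0.01, and scaling to the sum of all FPKM turns the KOb ratio to 0.41. Its 95% intervals from the implied errors, -1.05 to 0.09 and -1.07 to 0.07, include 0.

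**Figure D2:**
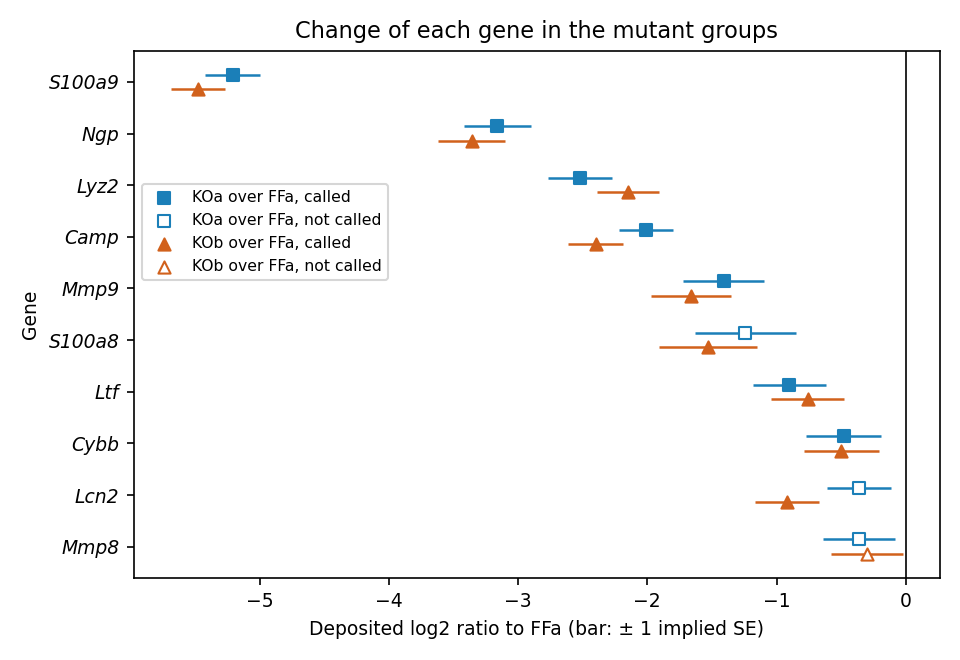
Deposited log2 ratios to FFa of the 10 genes in KOa (squares) and KOb (triangles), with bars of 1 implied standard error and filled points for genes called at a q below 0.05. The points run from -5.48 (S100a9, KOb) to -0.30 (Mmp8, KOb), all left of 0, and S100a8 lies far from S100a9. Scaling to the sum of all FPKM moves the KOb points of Ltf, Cybb and Mmp8 to the right of 0, and scaling without globins moves those of Cybb and Mmp8 in both groups and of Lcn2 in KOa.

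In KOa, 7 of the 10 genes were called lower and 0 higher by the authors' deposited Cuffdiff test, and all 10 log2 ratios were below 0 (7 of 10 when scaled without globins). Among all 10761 genes tested in that comparison, 14.1% were called lower and 7.99% higher. In KOb, 9 of 10 were lower and 0 higher, beside 15.2% lower and 12.8% higher among 10584 genes. At an unadjusted p under 0.05 the count of higher genes was also 0 in both comparisons, and it was 0 when the deposited statistic was read as a standard normal. The median log2 ratio over the 10 genes was -1.33 in KOa and -1.60 in KOb, against -0.08 and -0.01 over all genes tested. Both comparisons share the FFa libraries, so they are not separate evidence. Read as a standard normal, the statistic calls 7 genes lower in KOa with S100a8 in place of Cybb, and 7 in KOb, without Ltf and Cybb. Scaling FPKM without globins adds 0.54 (KOa) and 0.51 (KOb) to every log2 ratio, and scaling to the sum of all FPKM adds 0.91 in KOb. Any KOb ratio nearer to 0 than these shifts therefore changes sign under them. The sum without globins includes the 10 genes, which held 11.2% of it in FFa, 5.49% in KOa and 4.37% in KOb. Their own lower levels in the mutants are thus part of the shifts of 0.54 and 0.51.

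Between the mutant groups, 1 of the 10 genes was called different. It was lower in KOb than in KOa in the authors' deposited Cuffdiff table, and the other 9 were not called, beside 6.19% of 10468 tested genes called lower and 16.2% called in either direction. At an unadjusted p under 0.05 that table had 1 gene higher, Lyz2, and 2 lower, Camp and Lcn2, and the normal reading of the statistic called 0. The called gene was Lcn2, at 68.0% of its KOa level (log2 ratio -0.56 ± 0.25, q 0.0166, in the authors' deposited table), and scaling to the sum of all FPKM turns this ratio to 0.40. The authors' deposited table gives S100a8 -0.30 ± 0.23 (q 0.396), S100a9 -0.27 ± 0.20 (q 0.294), Camp -0.39 ± 0.21 (q 0.0816) and Lyz2 0.36 ± 0.25 (q 0.124). The median was -0.22 over the 10 genes and 0.04 over all genes tested.

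The summed level of the 10 genes was 49166 FPKM in FFa, 16610 in KOa and 13457 in KOb. Calprotectin supplied 92.0% of this sum in FFa, 90.9% in KOa and 91.5% in KOb, nearly all of it S100a8 in the mutants. The other 8 genes summed to 3948, 1509 and 1148 FPKM. As a share of all FPKM without the 11 globin genes, the 10 genes held 11.2% in FFa, 5.49% in KOa and 4.37% in KOb. As a share of all FPKM they held 3.97%, 1.30% and 2.04%, since the FPKM of KOb summed to 659009, against 1239023 in FFa and 1275908 in KOa. The control was highest on every one of these scales, while the order of KOa and KOb depended on whether globins were included.

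Among other late granule and surface genes of neutrophils, 20 of 38 tested fell in KOa and 25 in KOb. Over all genes tested, 14.1% were lower and 7.99% higher in KOa, and 15.2% and 12.8% in KOb. None of the list of 39 was called higher in either group by the authors' deposited Cuffdiff test, which had 1 higher in KOa and 0 in KOb at an unadjusted p under 0.05. The medians were -0.75 and -0.83, and the KOb median turns to 0.08 when scaled to the sum of all FPKM. Retnlg, a resistin-like secreted protein of neutrophils, was at 427, 225 and 206 FPKM in FFa, KOa and KOb, and fell, with log2 ratios of -0.93 and -1.06 in the authors' deposited table. Chi3l3, a chitinase-like protein, was at 117, 36.4 and 32.0 FPKM and fell, with log2 ratios of -1.68 and -1.87 in the authors' deposited table. Slpi, a secreted inhibitor of neutrophil proteases, was at 37.6, 5.08 and 5.38 FPKM and fell there with log2 ratios of -2.89 and -2.80, further than most of the 10 genes. Pglyrp1, a peptidoglycan-binding granule protein named after its values were seen, was at 316, 401 and 299 FPKM and was called in neither group. Haptoglobin (Hp), which binds free haemoglobin, was at 37.9, 19.97 and 20.1 FPKM, with log2 ratios of -0.92 and -0.91 in the authors' deposited table. Anxa1, a calcium-binding regulator of inflammation, was at 125, 101 and 80.5 FPKM and was called in KOb (q 0.000619) and not in KOa, while its difference between KOb and KOa did not pass (q 0.16), in the authors' deposited table. Summed over the 39 genes, levels were 4647, 3932 and 3361 FPKM. Most of this sum was 1 gene, Cd24a, at 3291, 2959 and 2547 FPKM and called in neither group.

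The genes of the first granules did not follow. Of 13 azurophil granule genes, the authors' deposited table called 5 higher and 2 lower in KOa, and 6 higher and 2 lower in KOb, with medians of 1.22 and 1.37. All genes tested gave 7.99% higher and 14.1% lower in KOa, and 12.8% and 15.2% in KOb. Myeloperoxidase (Mpo) was at 8.15 FPKM in FFa, 21.7 in KOa and 27.3 in KOb. It rose, with log2 ratios of 1.41 ± 0.29 and 1.75 ± 0.29 in the authors' deposited table. Cathepsin G (Ctsg), a serine protease, was at 3.35, 15.9 and 20.2 FPKM and rose by 2.24 ± 0.36 and 2.59 ± 0.36 there. Ms4a3, a membrane protein of granulocyte precursors, was at 2.51, 9.14 and 12.97 FPKM and rose by 1.86 ± 0.40 and 2.37 ± 0.39 in the authors' deposited table. Cathepsin B (Ctsb), a lysosomal protease, was at 112, 78.7 and 45.9 FPKM and fell, with log2 ratios of -0.51 and -1.29 there. Neutrophil elastase (Elane), named after its values were seen, was at 5.37, 13.2 and 20.3 FPKM and did not pass, with a log2 ratio of 1.30 ± 5.75 in KOa. Mpo and Ctsg were thus lowest in FFa, where Camp and Ngp were highest, and KOb and KOa were not called different for any of the 4 in the authors' deposited table. The 13 genes summed to 182, 212 and 204 FPKM.

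Most stefin genes, cystatin-type protease inhibitors expressed in neutrophils, rose. Of 9 tested, 7 were called higher in KOa and 6 in KOb and 0 lower in either by the authors' deposited Cuffdiff test, also 0 lower at an unadjusted p under 0.05 and by the normal reading of the statistic. The medians were 3.03 and 2.52. Shares over all genes tested were 7.99% higher and 14.1% lower in KOa, and 12.8% and 15.2% in KOb. Stfa2l1 was at 7.03, 57.4 and 28.3 FPKM, Stfa1 at 6.74, 53.1 and 38.6, and Stfa3 at 3.64, 35.8 and 22.6. Stefin genes are close copies of each other, so the division of reads among them is uncertain.

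Of 9 genes on a list around the oxidase that Cybb belongs to, 6 were called lower in KOa and 7 in KOb and 0 higher in the authors' deposited Cuffdiff table, also 0 higher at an unadjusted p under 0.05. The lower genes include Cybasc3 and the proton channel gene Hvcn1, which are not subunits of the enzyme, and the GTPase genes Rac1 and Rap1a were called in neither group (log2 ratios 0.34 and 0.06 in KOa, 0.15 and 0.25 in KOb, in the authors' deposited table). The medians were -0.59 and -0.70, and the KOb median turns to 0.21 when scaled to the sum of all FPKM. Over all genes tested, 14.1% were lower and 7.99% higher in KOa, and 15.2% and 12.8% in KOb. Cyba, the p22phox partner of Cybb in the membrane, was at 111.5, 48.0 and 52.8 FPKM and fell, with log2 ratios of -1.22 and -1.08 in the authors' deposited table. Ncf4, the p40phox cytosolic subunit, was at 24.8, 16.4 and 9.87 FPKM and fell, with log2 ratios of -0.59 and -1.33 there. The GTPase Rac2 was at 61.8, 44.5 and 45.0 FPKM. It was called lower in both groups, with log2 ratios of -0.47 ± 0.28 (q 0.0317) and -0.46 ± 0.28 (q 0.0416) in the authors' deposited table. Scaling without globins adds 0.54 in KOa and 0.51 in KOb, which turns both Rac2 ratios positive.

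**Figure D3:**
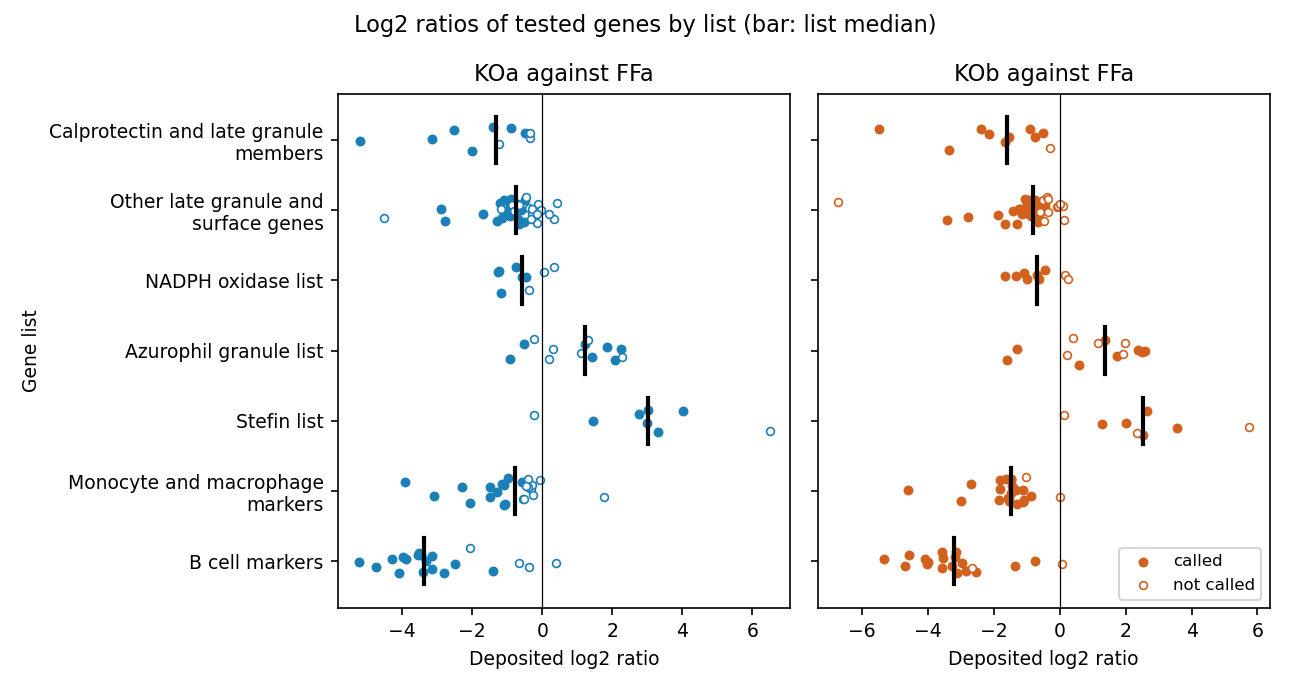
Deposited log2 ratios to FFa of the tested genes in 7 lists, with KOa on the left and KOb on the right, filled points for genes called at a q below 0.05 and a black bar at the list median. The late granule lists lie mostly left of 0, the azurophil and stefin lists mostly right of it, and the B cell markers farthest left with medians of -3.37 and -3.22. The stefin gene BC117090, listed at 0 in FFa, has no finite ratio and is not drawn. Scaling to the sum of all FPKM moves the KOb medians of the oxidase and other late granule lists to the right of 0.

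Regulators of granulocyte formation were weakly expressed and changed both ways. Of 13 tested, the authors' deposited table called 3 higher and 5 lower in KOa, and 3 higher and 7 lower in KOb. The medians were -0.23 and -0.69, and scaling turns them to 0.30 in KOa (without globins) and 0.22 in KOb (all FPKM). All genes tested gave 7.99% higher and 14.1% lower in KOa, and 12.8% and 15.2% in KOb. Csf3r, the receptor for the granulocyte growth factor G-CSF, was at 5.24, 3.14 and 3.25 FPKM and fell, with log2 ratios of -0.74 and -0.69 in the authors' deposited table. Klf5, a zinc finger factor, was at 5.62, 3.04 and 3.17 FPKM and fell, with log2 ratios of -0.88 and -0.83 there. Runx1 and Stat3, factors with broad roles in blood cells, rose by 0.49 and 0.55 in KOa and by 0.56 and 0.77 in KOb in the authors' deposited table, but by the normal reading of the statistic 0 regulators were higher in either group. The C/EBP genes differed among themselves, and all but Cebpd are named after their values were seen. Cebpa, needed for the first steps of granulocyte formation, was at 1.25, 0.391 and 0.546 FPKM and fell, with log2 ratios of -1.68 ± 0.65 (q 0.00614) and -1.20 ± 0.58 (q 0.0174) in the authors' deposited table. Cebpb was at 3.14, 0.889 and 0.876 FPKM and fell, with -1.82 ± 0.56 and -1.84 ± 0.56 (q 0.000619 in each) in the authors' deposited table. Cebpd was at 7.17, 5.20 and 3.29 FPKM, with -0.46 ± 0.50 in KOa that did not pass (q 0.317) and -1.13 ± 0.56 in KOb that did (q 0.0102), in the authors' deposited table. Cebpe, which drives the specific granule genes, was at 3.12, 2.69 and 2.39 FPKM and did not pass, with log2 ratios of -0.21 ± 0.43 in KOa (q 0.652) and -0.38 ± 0.44 in KOb (q 0.391) in the authors' deposited table.

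Of the receptors for calprotectin and cathelicidin, 9 were tested, and the authors' deposited table called 1 higher and 1 lower in KOa, and 1 higher and 3 lower in KOb, beside 7.99% higher and 14.1% lower among all genes in KOa and 12.8% and 15.2% in KOb. P2rx7 rose and Lrp1 fell in both groups, each below 1 FPKM throughout. Fpr2, a receptor for cathelicidin peptides, was at 2.93, 1.84 and 1.52 FPKM and fell by 0.94 in KOb (q 0.037, in the authors' deposited table). Timp2, the 1 metalloproteinase inhibitor tested, was at 2.13, 1.19 and 1.09 FPKM, and fell, with log2 ratios of -0.83 and -0.97 in the authors' deposited table.

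S100a8 and S100a9 lie 22.6 kb apart in a cluster of calcium-binding S100 genes on chromosome 3, where 12 S100a genes start within 200 kb of S100a8. Of these, 6 were below 1 FPKM in all groups. S100a4, a motility-linked member 63.0 kb away, was at 40.9 FPKM in FFa, 5.45 in KOa and 4.89 in KOb. It fell, with log2 ratios of -2.91 ± 0.33 and -3.06 ± 0.34 in the authors' deposited table. S100a6, close to it in the cluster, was at 231, 483 and 366 FPKM and rose by 1.06 ± 0.22 and 0.66 ± 0.22 there. S100a13 was at 12.2, 19.3 and 19.1 FPKM and rose by 0.66 ± 0.28 and 0.65 ± 0.28 in the authors' deposited table. Neighbouring genes thus moved in both directions, with S100a6 between S100a4 and S100a8 on the chromosome. Another list held 15 genes with S100 in their symbol, without S100a8 and S100a9 but with S100a4, S100a6 and S100a13. It also held S100pbp, which encodes a binding partner and not an S100 protein. The authors' deposited test called 2 higher and 2 lower among 9 tested in KOa, and 3 higher and 2 lower among 7 in KOb. These counts include the calls of S100a4, S100a6 and S100a13 given above. They stand beside 7.99% higher and 14.1% lower over all genes tested in KOa, and 12.8% and 15.2% in KOb.

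**Figure D4:**
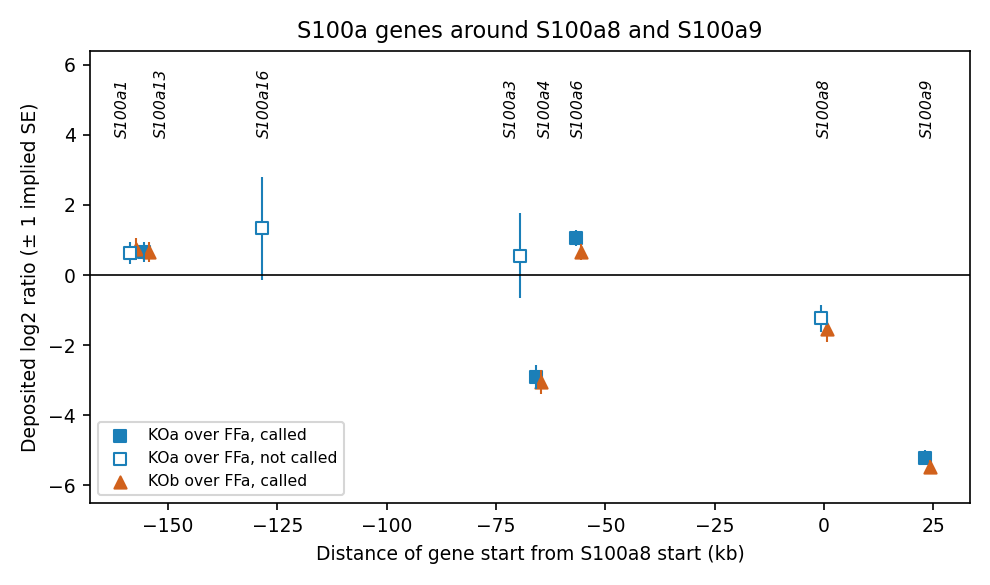
Deposited log2 ratios to FFa, with bars of 1 implied standard error, of the S100a genes tested within 200 kb of S100a8, by the distance of their start from that of S100a8. S100a4, S100a8 and S100a9 lie below 0, and S100a1, S100a13 and S100a6 above it. S100a16 (1.34 ± 1.47) and S100a3 (0.55 ± 1.21), tested in KOa only, also lie above 0 with wide bars.

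Around the other 8 genes, 36 neighbours within 150 kb were tested, and the authors' deposited Cuffdiff test called 3 higher (8.33%) and 6 lower (16.7%) in KOa, near the shares of all genes (7.99% and 14.1%). In KOb it called 4 of 36 lower (11.1%, against 15.2% of all genes). The tested neighbours of Ngp (5 genes) and Cybb (2 genes) were not called in either comparison with FFa in the authors' deposited table, and near Mmp8 none could be tested. Near Mmp9, 4 of 10 tested neighbours were lower in KOa (Acot8, Cd40, Ctsa and Ncoa5) and 2 of 10 in KOb (Ctsa and Pcif1). Near Lyz2, 1 of 4 was higher in KOa, the adaptor gene Frs2 (0.78 ± 0.33, in the authors' deposited table), and near Camp Mtap4 was lower in both groups (-0.54 ± 0.37 and -0.64 ± 0.37). Near Ltf, Ccrl2 was higher in KOa (0.49 ± 0.28), and near Lcn2, Fam102a was lower in both groups (-0.93 ± 0.55 and -1.26 ± 0.58), in the authors' deposited table. The gene beside Lcn2, 1110008P14Rik, 2.72 kb away, rose by 0.50 ± 0.23 in KOa in the authors' deposited table, where Lcn2 did not pass.

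The genes whose pair of log2 ratios lay nearest to the median of the 10 were sought among 7983 other genes, as a description over 2 ratios. They were Il10ra (distance 0.027), Pde1b (0.040), Tyrobp (0.044), Mpnd (0.047), Mrc1 (0.053) and Dpp4 (0.071). Tyrobp, which encodes the DAP12 signalling adaptor of myeloid and NK cells, was at 268, 109 and 91.0 FPKM, and the other 5 were below 3 FPKM. Nearest to S100a8 were N4bp2l1 (0.038), Rassf7 (0.038) and Prkcb (0.046). Nearest to S100a9 were Vpreb3 (0.131), a gene on the B cell marker list, at 104, 2.74 and 2.54 FPKM, then Cd36 (0.701) and Hist1h4a (0.723). The fall of S100a9 ranked 33 among the 10761 genes tested in KOa and 34 among the 10584 tested in KOb.

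Summed levels of B cell, monocyte and macrophage, and T and NK cell markers moved with these genes, while those of megakaryocytes did not. Megakaryocyte markers summed to 39.6 FPKM in FFa, 71.4 in KOa and 59.3 in KOb. Markers of eosinophils, basophils and mast cells were called both higher and lower. Of 20 B cell markers, the authors' deposited table called 16 lower in KOa and 18 in KOb, and their summed level was 301 FPKM in FFa, 31.9 in KOa and 28.9 in KOb. The B cell receptor subunit Cd79b was at 61.3, 6.92 and 5.09 FPKM. Of the monocyte and macrophage markers, 13 of 24 tested were lower in KOa and 21 of 23 in KOb and 0 higher by the authors' deposited Cuffdiff test, also 0 higher at an unadjusted p under 0.05, and they summed to 217, 147 and 94.8 FPKM. Ly6c2 was at 63.8, 51.5 and 34.9 FPKM, Ifi30 at 36.5, 24.5 and 17.2, C1qb at 30.7, 25.1 and 14.1, and C1qa at 17.2, 8.35 and 5.52. Ifi30 and C1qa were called lower in both groups, but Ly6c2 (q 0.224 in KOa) and C1qb (q 0.267 in KOa) only in KOb. The growth factor receptor gene Csf1r was at 3.86, 1.81 and 1.06 and Cd14, which was not tested, at 0.137, 0.248 and 0.203, both named after their values were seen. T and NK cell markers summed to 63.9, 25.9 and 21.1 FPKM, and 3 of 11 tested were lower in KOa and 6 of 10 in KOb. Of the 14 erythroid markers, 1 was lower in KOa (Alas2) and 5 in KOb. Beside these marker counts, 14.1% of all genes tested were lower and 7.99% higher in KOa, and 15.2% and 12.8% in KOb. FFa therefore held the highest summed level of B cell, macrophage and T cell markers as well as of the 10 genes. The azurophil and stefin lists, in contrast, summed lowest in FFa, at 182 and 32.6 FPKM. What part other cells had in the result was not tested.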

How the data were processed

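Column-purified, DNase-treated RNA was made into 9 libraries (NuGEN Encore Complete), per the labels' protocols. TopHat2 2.0.8b, Bowtie2 2.1.0, Cuffdiff 2.1.1 and mm10 are named in the submitters' processing notes. Annotation, filters, scaling and use of strand are not stated there. Each gene has, in the table deposited by the authors, 1 pooled FPKM per group. The log2 ratios, the test statistic (a score), the p-value and the q-value are those of the authors' deposited table, and the q-value was recomputed as a Benjamini-Hochberg adjustment over the 31813 tests of the 3 comparisons (largest difference 5.27e-07).

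Computed here were percentages, folds, counts, medians, sums, and standard errors as the log2 ratio divided by the statistic. Intervals are 1.96 errors to each side. Locus starts were raised by 1 base to count from 1. The 10 genes and all lists were chosen with earlier results of these data known. Named genes are the 10 and up to 4 called genes of highest FPKM per list (up to 2 where none was called). Also named are the nearest patterns among genes of at least 1 FPKM in FFa, and called neighbours within 150 kb. Of other named genes, some are marked as named after their values were seen, and some, such as Rac1 and Hvcn1, are not. Alternatives covered thresholds, adjustment, pseudocounts of 1 and 0.1 FPKM, FPKM minimums, scaling and centring; those for the lists were chosen after seeing the data. Counting and adjustment code was tested on simulated data. Sequences came from RefSeq GRCm38.p6; protein sequences were not used here. Python 3.11.15, pandas 2.3.3, numpy 2.4.6, scipy 1.17.1, Biopython 1.88 and matplotlib 3.10.9 were used.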

Additional observations from a re-analysis of the deposited data

Results flagged for a closer look

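Lcn2 differed between the mutant groups, with a log2 ratio of KOb over KOa of -0.56 ± 0.25 in the authors' deposited table (q 0.0166). It was at 895 FPKM in KOa and 609 in KOb. The call did not hold by the normal reading of the statistic (adjusted p 0.206), and the sort gate differs between these groups.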

How the results depend on the processing

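Only pooled group values were used, so leaving out single libraries could not be run and depth limits cannot be stated. No paired analysis was possible because the 3 numbered libraries of each group share 1 deposited value. Pseudocounts of 1 and 0.1 FPKM and centring on the median of expressed genes kept the direction of all 10 genes in the 3 comparisons. Scaling to FPKM without globins turned Cybb to 0.06 in KOa and 0.01 in KOb, and moved the median of the 10 genes to -0.79 and -1.09. Scaling to the sum of all FPKM turned Ltf to 0.15 and Cybb to 0.41 in KOb, and moved Lcn2 to -0.01 and the KOb median to -0.69. For KOb over KOa it turned Lcn2 to 0.40 and the median to 0.73. Without S100a8 and S100a9 the KOb median was -1.29. The 1 gene lower in KOb than KOa became 0 at a q below 0.01, by the normal reading of the statistic, or with a 2-fold minimum. Under alternatives chosen after seeing the data, scaling without globins turned the KOa median of the granulopoiesis regulators to 0.30, and scaling to the sum of all FPKM turned the KOb medians of these regulators, the other late granule genes and the oxidase list to 0.22, 0.08 and 0.21. By the normal reading of the statistic, the genes called lower in KOa and KOb went from 20 and 25 to 9 and 11 for other late granule genes, from 6 and 7 to 3 and 4 for the oxidase list, from 5 and 7 to 1 and 2 for the regulators (whose 3 higher calls in each group became 0, and 1 at a q below 0.01), and from 13 and 21 to 7 and 13 for macrophage markers.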

Other observations

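Megakaryocyte genes changed both ways. Of 8 tested, the authors' deposited table called 4 higher and 1 lower in KOa, and 4 higher and 2 lower in KOb, with medians of 1.06 and 0.97. Shares over all genes tested were 7.99% higher and 14.1% lower in KOa, and 12.8% and 15.2% in KOb. Platelet factor 4 (Pf4), a chemokine of platelet granules, was at 3.85 FPKM in FFa, 22.9 in KOa and 18.3 in KOb. The platelet adhesion receptor gene Gp1ba was at 1.19, 5.87 and 7.04 FPKM, whereas its partner subunit gene Gp1bb was at 3.98, 1.44 and 1.36 FPKM, with log2 ratios of -1.47 and -1.55 (q 0.00548 in each) in the authors' deposited table. Of the genes of eosinophils, basophils and mast cells, 10 were tested in KOa and 11 in KOb. The authors' deposited table called 3 higher and 3 lower in each comparison with FFa, beside the same shares over all genes. The normal reading of the statistic left 0 higher and 2 lower in KOa, and 2 and 2 in KOb. Prg2, the major basic protein of eosinophil granules, was at 7.91, 14.4 and 15.4 FPKM, whereas Prss34, a basophil and mast cell protease, was at 13.8, 1.95 and 1.29.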
